A study of Mus musculus with 21 samples.

Results

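The regions described here were the 10000 open chromatin peaks of the CD138 population that had the highest score among its specific peaks, on chromosomes 1 to 19 and X. They were chosen by the authors' peak score, with ties settled by chromosome and start, from 126532 CD138 specific peaks, which were 58.4% of the 216790 CD138 peaks on these chromosomes. A specific peak is a CD138 peak that overlaps no peak of the other 3 sorted populations. Over the series, the 4 specific lists held 371512 peaks and the 4 complete lists held 716552. Because the score chose the members, scores, widths and specificity are given below as descriptions only.

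The study mapped open chromatin by ATAC-seq in stromal cells of the mouse colon, using C57BL/6 males of 12 weeks for which the labels name no treatment or allele. Colons were digested with collagenase VIII and DNase I. All cells were sorted as positive for gp38 (podoplanin) and negative for CD45, Epcam and CD31, with added antibodies for each subset. The 4 populations were CD138 (CD34-negative cells that carry CD138), CD34 SP (CD34 single positive cells), MRISC (Map3k2-regulated intestinal stromal cells) and Myofibroblast, with 2 libraries each that were deposited as 1 pooled list per population. Transcripts were counted in 1 droplet library of gp38+CD90+ colon cells from wild type C57BL/6 females of 12 weeks given 2% DSS (dextran sulfate sodium, which damages the gut lining) and sampled at D3. Sex, treatment and gate thus differed between the chromatin and the transcript data. The 12 bulk RNA samples were not analysed here.

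In ATAC-seq a transposase cuts DNA that is not wrapped in nucleosomes, so that promoters and enhancers in use appear as peaks. CD138 is syndecan-1, the product of Sdc1, a heparan sulfate proteoglycan. In the gut it is carried by epithelium and, in the population sorted here, by stromal cells, and in the immune system it is the classic surface marker of plasma cells. Enhancers lie far from gene starts, often in groups, and hold short sequence words read by transcription factors. ETS factors such as PU.1 and FLI1, RUNX factors and POU factors such as OCT2 are well known from enhancers of blood cells, and AP-1 from enhancers of activated fibroblasts.

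The central 200 bp of 11 members are shown, on the forward strand of mm10, from the RefSeq sequence of GRCm38. Capitals mark 7 words on either strand, namely AGGAAGT (ETS), GAGGAAGT (PU.1, which contains the ETS word), TGTGGTT (RUNX), ATGCAAAT (POU), GAAANTGAA (IRF), CAGCTG (an E-box) and CACCTG (the E-box read by ZEB and by E proteins). The top 5 lines are the highest-scored members outside exons, named by their nearest gene and rank. They lie at chr1:122357122-122357321, chr6:87542096-87542295, chr6:48732969-48733168, chr1:53774065-53774264 and chr3:100463847-100464046.
Ddx18, rank 1: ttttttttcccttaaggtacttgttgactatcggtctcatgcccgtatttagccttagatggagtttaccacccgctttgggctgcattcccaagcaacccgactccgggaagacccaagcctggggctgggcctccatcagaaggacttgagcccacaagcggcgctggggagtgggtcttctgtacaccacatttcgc
Arhgap25, rank 3: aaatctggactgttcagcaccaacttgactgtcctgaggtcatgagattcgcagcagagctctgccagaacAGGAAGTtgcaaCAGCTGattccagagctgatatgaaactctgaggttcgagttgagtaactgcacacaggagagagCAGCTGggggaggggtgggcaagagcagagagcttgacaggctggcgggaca
Gimap1, rank 4: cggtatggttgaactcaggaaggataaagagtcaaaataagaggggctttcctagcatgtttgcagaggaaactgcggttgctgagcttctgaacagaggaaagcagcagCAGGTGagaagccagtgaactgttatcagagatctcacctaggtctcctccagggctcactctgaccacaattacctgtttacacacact
Stk17b, rank 5: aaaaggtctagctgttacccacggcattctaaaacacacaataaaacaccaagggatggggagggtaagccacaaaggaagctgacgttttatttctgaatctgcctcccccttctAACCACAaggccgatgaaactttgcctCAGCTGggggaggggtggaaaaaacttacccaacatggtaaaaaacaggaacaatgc
Tent5c, rank 6: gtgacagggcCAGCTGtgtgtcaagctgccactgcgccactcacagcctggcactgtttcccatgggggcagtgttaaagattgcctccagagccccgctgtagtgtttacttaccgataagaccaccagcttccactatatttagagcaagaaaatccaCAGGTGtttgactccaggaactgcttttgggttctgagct
Of these, 4 of 5 held at least 1 marked word, and the member of rank 1 held none. The next 3 are the highest-scored members outside exons with both an ETS and a RUNX word, at chr11:107451207-107451406, chr14:59397087-59397286 and chr6:145845702-145845901, and they were picked after their values were seen.
Pitpnc1, rank 58: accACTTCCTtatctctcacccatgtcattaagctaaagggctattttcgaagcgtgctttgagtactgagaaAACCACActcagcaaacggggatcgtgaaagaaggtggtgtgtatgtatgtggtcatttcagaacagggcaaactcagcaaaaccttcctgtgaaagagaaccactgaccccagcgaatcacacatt
Phf11c, rank 82: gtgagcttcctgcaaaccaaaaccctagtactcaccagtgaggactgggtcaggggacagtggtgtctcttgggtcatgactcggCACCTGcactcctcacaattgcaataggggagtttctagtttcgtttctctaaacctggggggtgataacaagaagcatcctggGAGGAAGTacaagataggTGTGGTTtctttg
Bhlhe41, rank 89: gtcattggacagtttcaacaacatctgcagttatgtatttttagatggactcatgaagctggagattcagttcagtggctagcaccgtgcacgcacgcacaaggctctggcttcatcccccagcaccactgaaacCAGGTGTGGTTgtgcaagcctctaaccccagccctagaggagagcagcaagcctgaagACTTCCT
The last 3 show members at loci that the results turn on, the region past the immunoglobulin kappa constant gene Igkc (chr6:70735652-70735851), Prdm1 (chr10:44377803-44378002) and Ptprc (chr1:138148885-138149084).
Rpia, rank 12: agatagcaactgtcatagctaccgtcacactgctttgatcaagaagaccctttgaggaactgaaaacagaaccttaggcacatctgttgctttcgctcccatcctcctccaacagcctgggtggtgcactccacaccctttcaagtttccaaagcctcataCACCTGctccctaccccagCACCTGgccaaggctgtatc
Prdm1, rank 423: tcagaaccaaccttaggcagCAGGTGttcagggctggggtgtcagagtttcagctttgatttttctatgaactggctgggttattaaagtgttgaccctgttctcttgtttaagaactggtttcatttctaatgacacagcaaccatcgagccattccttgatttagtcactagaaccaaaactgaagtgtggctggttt
Ptprc, rank 120: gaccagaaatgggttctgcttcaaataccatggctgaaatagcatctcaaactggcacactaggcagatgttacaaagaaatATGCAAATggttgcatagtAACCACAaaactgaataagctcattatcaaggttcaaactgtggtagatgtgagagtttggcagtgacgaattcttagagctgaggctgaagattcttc
The Ptprc member, in an intron of the gene, carried both a POU word and a RUNX word.

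Member scores ran from 0.0490 to 0.169, with a median of 0.0546. The score just inside the limit, at rank 10000, was 0.0490236, and the score just outside, at rank 10001, was 0.0490234, so the limit fell on a continuous slope. The lowest member lay at percentile 70.3 of all CD138 peaks, and the highest CD138 score, 14.3, belonged to a peak shared with another population. The members were thus the strongest of the specific peaks, above the median of all CD138 peaks (0.0399) and below the highest shared peaks. Members were 201 to 1822 bp wide, with a median of 284 bp against 122 bp in the other CD138 specific peaks, and the median width was 499 bp in ranks 1 to 100 and 252 bp in ranks 5001 to 10000. Together they covered 3.11 Mb.

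Specific did not mean isolated. A peak of another population lay within 500 bp of 2366 members (23.7%), and the median gap to the nearest such peak was 1603 bp. The same median was 1033.5 bp in the MRISC, 633.5 bp in the CD34 SP and 1702 bp in the Myofibroblast lists of 10000 made by the same rule. Chromosome X held 88 members (0.88%), against 1.52% in MRISC, 3.00% in CD34 SP and 0.53% in Myofibroblast, and it had 0.515 members per Mb where the autosomes had 3.18 to 5.05. The central 200 bp of members were 13.7% soft-masked (marked as repeats in the reference) on average, against 13.8% in all CD138 peaks. Members made up mostly of exact repeats were rare. Only 9 members had most of the 31-base words of their central 200 bp elsewhere in the genome, against 13 in MRISC, 23 in CD34 SP and 35 in Myofibroblast. At least 1 such word recurred in 1024 members (10.2%), against 11.2%, 12.2% and 16.05% in the same order. The search took exact words on assembled chromosomes only. The member of rank 1 lies 789233 bp from the start of Ddx18, outside protein-coding genes. Of its 31-base words 16.5% recurred, 24 of 170 in the Cdk8 gene on chromosome 5 and 18 at a site on chromosome 2.

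The members were mostly distal. Their centres lay within 1 kb of the start of a protein-coding transcript (GENCODE vM21) in 482 cases (4.82%, exact 95% interval 4.41 to 5.26), against 2.58% of the other CD138 specific peaks, 20.7% of the CD138 peaks shared with another population and 10.2% of all CD138 peaks. Such intervals, here and below, treat peaks as independent and cover counting error only. With 1 pooled list per population no spread between libraries could be measured. The median distance to a start was 28980.5 bp, with quartiles at 8984.5 and 93917.5 bp, against 47010.5 bp in the other specific peaks and 15244.5 bp in the shared peaks. The strongest specific peaks thus lay nearer to genes than the weaker specific peaks and farther than the shared ones.

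Among the 4 lists of 10000, the promoter share was 4.83% in MRISC, 5.68% in CD34 SP (5.23 to 6.15) and 2.89% in Myofibroblast (2.57 to 3.24). The members could not be told from MRISC by this share, whose intervals overlapped, and lay above Myofibroblast. The median distance was 28437.5 bp in MRISC, 19751.5 bp in CD34 SP and 35813 bp in Myofibroblast. Introns of protein-coding genes held 47.6% of members, exons 5.88%, and 46.5% lay outside such genes. The distance passed 100 kb for 2395 members (23.9%).

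**Figure D1:**
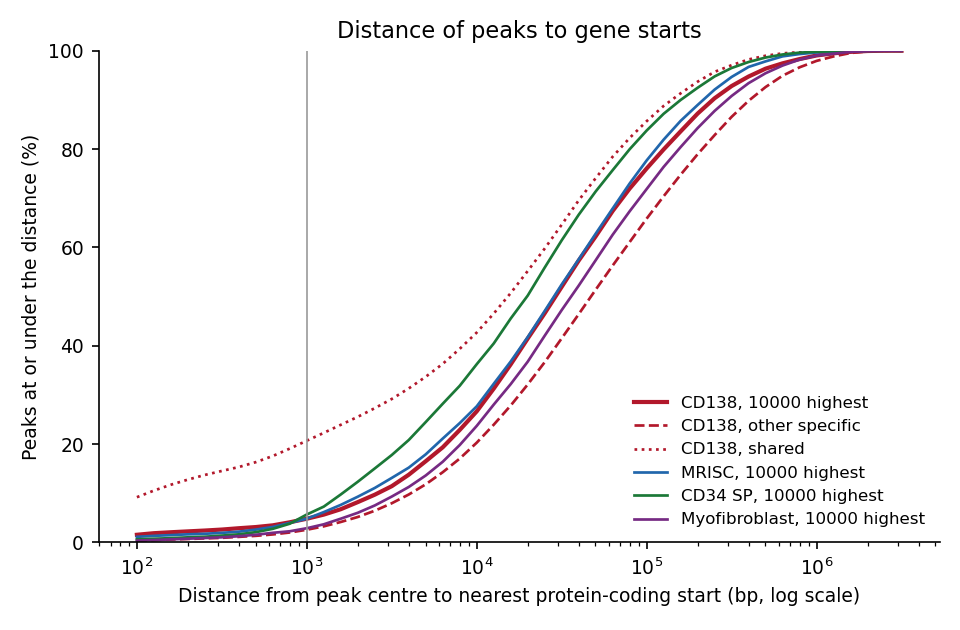
Share of peaks (%, vertical axis) whose centre lies at or under a distance (bp, log axis) from the nearest protein-coding start, for the CD138 members (thick red), the other CD138 specific peaks (dashed), the shared CD138 peaks (dotted) and the lists of the other 3 populations; the grey line marks 1 kb. Beyond the 1 kb line the member curve runs with MRISC, under CD34 SP and above Myofibroblast and the weaker CD138 specific peaks, while at 100 bp it lies above MRISC and CD34 SP (1.56% against 1.14% and 0.63%).

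Within the members, those with higher scores sat nearer to genes. The promoter share was 9% in ranks 1 to 100 (4.2 to 16.4), 8.75% in ranks 101 to 500 (6.17 to 12.0), 6.20% in ranks 501 to 1000, 4.68% in ranks 2501 to 5000 and 4.10% in ranks 5001 to 10000 (3.57 to 4.69). The median distance was 17026.5 bp in ranks 1 to 100 and 34981 bp in ranks 5001 to 10000. The next 10000 specific peaks had 3.09% in promoters.

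The members had 5671 different nearest genes, 26.1% of the 21755 protein-coding genes. Of these, 3439 had a single member and 264 had 5 or more, up to 13. The gene with the most was Cited2, which encodes a CBP/p300-binding transcriptional regulator, with 13 members spread from 69667 to 1467339 bp from its start, against 1 in MRISC, 4 in CD34 SP and 4 in Myofibroblast. The gene of the chromatin remodeler Chd7 had 12 members against 3, 1 and 3 in the same order. Myc, the growth-promoting transcription factor, also had 12, against 8, 1 and 8, and the nearest of them lay 12347 bp away and the farthest 820203 bp. The 20 genes with the most members differed in their CD138 peaks in all, from 39 to 154. The totals were 154 at Tcf4, 146 at Pcdh7, 144 at Rbms3, 134 at Lpp, 130 at Nav2, 123 at Cited2 and 119 at Myc. They were 55 at Chd7, 46 at Tent5c, 41 at Syt13 and 39 at Plcg2. Of the CD138 peaks on each autosome, 4.23% to 5.01% were members. The other genes among the 20 fell into a few kinds.

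Adhesion and neuronal genes that are long were among them, with 11 members each at Nav2 (a guidance protein of the navigator family, 701 kb), Pcdh7 (a protocadherin) and Adgrl3 (a latrophilin-type adhesion receptor, 805 kb). Myofibroblast had 13 at Nav2, more than CD138. The 20 neural and adhesion genes listed for their length had 79 members (0.79%), against 50 in MRISC, 33 in CD34 SP, 99 in Myofibroblast and 0.938% of all CD138 peaks, which lay within the interval of the members (0.626 to 0.984). Transcription factor genes were Casz1 (11 members, 0 in MRISC and CD34 SP, 4 in Myofibroblast), Tcf4, which encodes an E protein (10, against 0, 10 and 3), and Foxo1 (9, against 7, 3 and 3).

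Signalling genes were Irs2, the insulin receptor substrate (10 members, against 9 in MRISC, 5 in CD34 SP and 6 in Myofibroblast), Trib1, a pseudokinase (9, against 3, 6 and 4), and Plcg2. Plcg2 encodes the phospholipase C that acts under the B cell receptor and myeloid receptors. It had 9 members, 0 in MRISC, 0 in CD34 SP and 1 in Myofibroblast. Tent5c, which encodes a poly(A) polymerase that lengthens the tails of immunoglobulin messages in plasma cells, had 10 members, against 1, 0 and 2. Lpp, a zyxin-type adhesion protein, had 10 (6, 9 and 5 in the others), Reep3 10 (2, 3 and 7), Lmo7 9 (0, 2 and 2), Gramd3 9 (0, 2 and 4), Vrk1, a nuclear kinase, 9 (4, 2 and 5), Syt13 9 (1, 4 and 5) and Rbms3, an RNA-binding protein, 9 (5, 11 and 6).

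Of the 20 members with the highest scores, 11 lay in introns of protein-coding genes, 2 in exons and 7 outside such genes. The blood-cell lists described later hold none of their nearest genes, and the roles given here are background. Rank 3 lay 8937 bp from Arhgap25, a gene expressed in leukocytes, rank 4 lay 5985 bp from Gimap1, a GTPase of lymphocytes, and rank 5 was in an intron of Stk17b, a kinase abundant in lymphocytes. Rank 6 was in an intron of Tent5c, 25377 bp from its start, and rank 7 in an intron of Cd44, the hyaluronan receptor, which had 5 members here, 0 in MRISC, 9 in CD34 SP and 0 in Myofibroblast. Rank 13 was in an intron of St6gal1, the sialyltransferase that builds the ligand of CD22. Ranks 12 and 15 lay at the immunoglobulin kappa and heavy chain loci, with Rpia and Tmem121 as nearest protein-coding starts.

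Other genes of the 20 have general roles. Rank 2 was in an exon of Rilpl2 and rank 14 in an exon of Mettl8, rank 8 was 1116 bp from Hip1r and rank 10 was 1217 bp from the start of the ubiquinone enzyme Coq2. Rank 9 was 74719 bp from Anxa5, a phospholipid-binding annexin, rank 11 was 55597 bp from Sfmbt2, rank 17 was in an intron of Ppp1r16b and rank 19 in one of the lamin gene Lmnb1. In promoters were rank 16 at AI467606 (41 bp), rank 18 at Bin1 (189 bp), a membrane-bending protein, and rank 20 at the kinase gene Rps6ka1 (125 bp).

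A modest share of members stood in groups. With neighbours linked at gaps of up to 12500 bp, 2115 members (21.1%, 20.4 to 22.0) formed 926 clusters, of which 174 had 3 or more members and 23 had 5 or more. The share was 23.8% in MRISC, 32.0% in CD34 SP and 14.9% in Myofibroblast. CD34 SP had 61 clusters of 5 or more with up to 16 peaks, MRISC had 9 and Myofibroblast had 1. The grouping of the members thus lay between that of Myofibroblast and CD34 SP, and close to that of MRISC.

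The cluster with the most members held 8 over 36.4 kb, between 141437 and 177422 bp from the start of Irs2. The next held 7 members over 17.8 kb at Stard5, a sterol-binding protein, and Il16, a cytokine gene of lymphocytes. Clusters of 6 lay at the kappa locus (31.4 kb, nearest start Rpia), Tent5c (20.4 kb), the phosphatase gene Dusp22 (14.5 kb), Abr (31.4 kb) and Ccnd2, which encodes cyclin D2 (25.7 kb). Others of 6 lay at Ncf1, the p47 subunit of the phagocyte NADPH oxidase, with Gtf2i (9.61 kb), at Csk, the kinase that restrains Src kinases (17.2 kb), and at Sla, a Src-like adaptor of lymphocytes that lies inside Tg (34.1 kb). In 7 of these 10 clusters none of the 3 other lists had a peak, and in the other 3 they had 1 or 2 in all.

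Members at genes of blood cells were counted with 8 lists of 120 genes, of which 3 genes also stand in a list of another kind (Ptprc, Runx1 and Kit). Such a gene was nearest to 139 members (1.39%, 1.17 to 1.64), against 42 peaks in MRISC (0.42%, 0.303 to 0.567), 34 in CD34 SP (0.34%, 0.236 to 0.475) and 44 in Myofibroblast (0.44%, 0.320 to 0.590). Over all CD138 peaks the share was 0.596%. The share among members was above that of each other list with intervals that did not overlap. These intervals treat peaks as independent, although the 139 members fell at 60 genes, and they hold no spread between libraries. It was 3.40% in ranks 1 to 500 (1.99 to 5.39) and 1.28% in the remaining 9500 (1.07 to 1.53), while in MRISC, CD34 SP and Myofibroblast ranks 1 to 500 had 0.60%, 0.20% and 0.40%. Of the 120 genes, 60 (50%) had a member, against 26.1% of all protein-coding genes. In MRISC, CD34 SP and Myofibroblast, 27, 19 and 29 of the 120 genes had a peak.

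The pan-leukocyte list contributed most, with 61 members at 21 of its 24 genes, against 10 peaks in MRISC, 15 in CD34 SP and 12 in Myofibroblast. This was 0.61% of members (0.467 to 0.783), against 0.225% of all CD138 peaks. Fli1, an ETS factor of blood and endothelium, had 6 members among 49 CD138 peaks (1, 3 and 0 in the others). Its highest member had rank 52. Runx1, the core factor of blood stem cells, which fibroblasts also express, had 6 among 79, against 4, 8 and 4. Dock2, the Rac activator of leukocytes, had 5 among 20, against 1, 0 and 1. Ptprc, which encodes CD45, the antigen that the sort excluded, had 4 members, at ranks 120, 1537, 3732 and 4357, against 1 in each other list. These were 4 of its 67 CD138 peaks, and over all of chromosome 1, which holds Ptprc, 4.66% of CD138 peaks were members. With 4 members each stood Runx3 (1, 0 and 2), Ikzf1 (none in the others), Gfi1 (none) and Arhgap15 (2, 2 and 0). The 4 Runx3 members included rank 100, which lay 126 bp from a start. Cd53, Was and Ikzf3 had no member.

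The plasma cell list had 26 members at 9 of its 12 genes, against 7, 3 and 6 in MRISC, CD34 SP and Myofibroblast. This was 0.26% of members (0.170 to 0.381), against 0.0881% of all CD138 peaks. Prdm1, which encodes BLIMP1, the factor that sets the plasma cell programme, had 7 members, more than any other blood-list gene, against 1, 2 and 1. These were 7 of its 71 CD138 peaks. They lay 6748 to 88376 bp from its start, on both sides, at ranks 423, 432, 2934, 3262, 3454, 4807 and 8351. Slamf7 had 4 members and 0 in each other list. Jchain, which joins polymeric antibodies, had 3 members, at 28, 12550 and 13186 bp from its start and within 1 cluster. Xbp1, the factor of the secretory expansion, had 3, at 8273, 11113 and 20421 bp. Irf4 had 3 members, but MRISC also had 3 there. Derl3, Fcrl5 and Eaf2 had no member.

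The macrophage and dendritic list had 18 members at 11 of 18 genes, against 2, 2 and 1. This was 0.18% of members (0.107 to 0.284), against 0.0420% of all CD138 peaks. Itgam had 4 and Spi1, the gene of PU.1, had 3, with 0 in each other list. Csf1r, Cd14, Lyz2, Cd68, Fcer1g, Flt3 and Xcr1 had no member. The B cell list had 8 members (4 of them at Bank1), against 4, 2 and 3, and its intervals overlapped those of the others. The T cell and innate lymphoid list had 13 members against 10, 3 and 15, so here Myofibroblast had more. Of all CD138 peaks, 0.0572% lay at B cell genes and 0.104% at T cell and innate lymphoid genes, within the intervals of the members. Lists of neutrophils (4 members), of mast cells, basophils and eosinophils (5) and of erythroid cells and megakaryocytes (4) had intervals that overlapped those of each other list. The counts in MRISC, CD34 SP and Myofibroblast were 3, 1 and 2 for neutrophils, 3, 6 and 4 for mast cells and their relatives, and 3, 2 and 1 for erythroid cells and megakaryocytes.

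**Figure D2:**
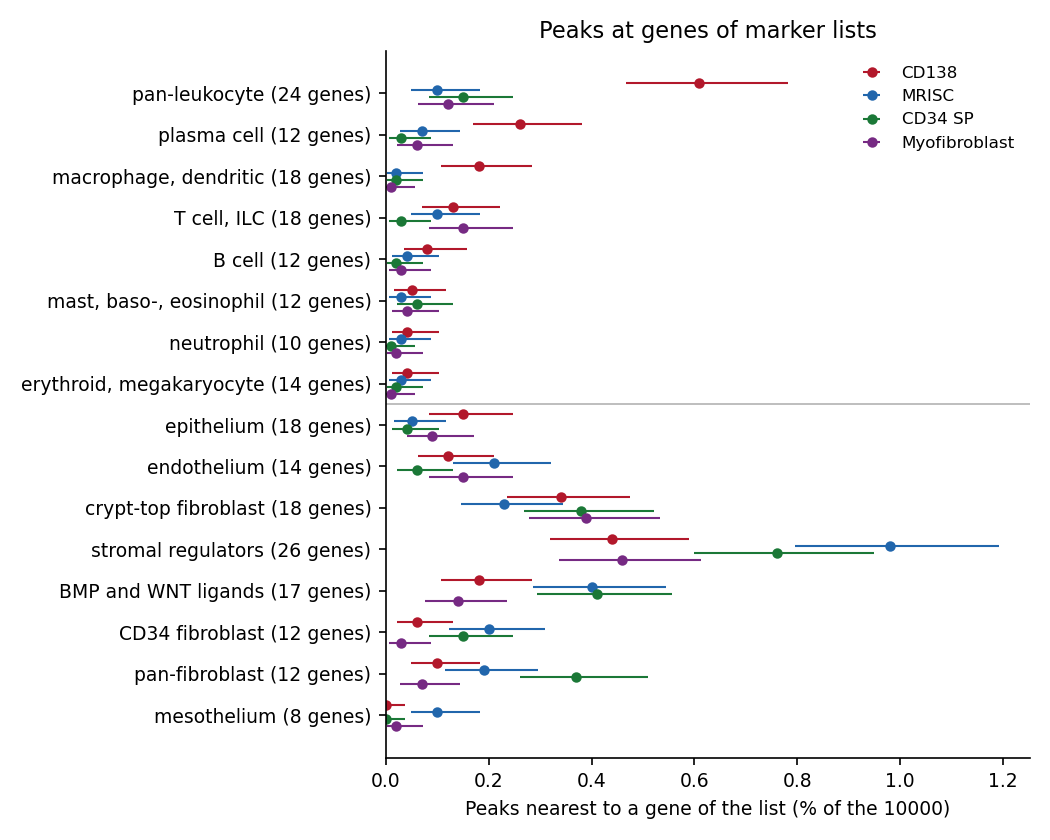
Share of the 10000 highest-scored specific peaks of each population (%, points, with exact 95% intervals as lines) whose nearest protein-coding start belongs to a gene of the list named at the left; lists above the grey line are blood-cell lists. The CD138 points stand apart to the right for the pan-leukocyte (0.61%), plasma cell (0.26%) and macrophage and dendritic (0.18%) lists, and to the left of MRISC and CD34 SP for the stromal regulators (0.44%).

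The antigen receptor loci were examined after these values had been seen. With 50 kb on each side, the 6 loci held 18 members, 8 at Igk, 5 at Igh, 3 at Igl, 1 at Tra and Trd, 0 at Trb and 1 at Trg. MRISC had 2 peaks there, CD34 SP had 7, of which 7 lay at T cell receptor loci, and Myofibroblast had 14, of which 9 lay at Igh. The totals of CD138 and Myofibroblast were thus near each other, and Igk was the locus with the most CD138 members and Igh that with the most Myofibroblast peaks. At Igk, 7 of the 8 members lay within 50 kb of the constant gene, and the member of rank 12 (chr6:70735442-70736061) began 8475 bp past its end. The member of rank 15 (chr12:113256359-113258180) overlapped Igha, the constant gene of IgA, and was the widest of all members at 1822 bp. At Ighm, 2 members lay 2725 and 4559 bp upstream.

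The label CD138 was checked against its marker. Sdc1 had 3 members and 27 CD138 peaks, the strongest member (rank 386, chr12:8781063-8781583) inside the gene, 9581 bp from its start. MRISC had 0 of its 10000 highest peaks at Sdc1, CD34 SP 1 and Myofibroblast 1. Cd34, which this population should lack at its surface, also had 3 members, at 44254, 56647 and 75876 bp from its start. It had 35 CD138 peaks, and 0 of the highest peaks in MRISC, 2 in CD34 SP and 0 in Myofibroblast. The number of members thus did not tell Sdc1 from Cd34. Of the antigens excluded by the sort, Ptprc had 4 members among 67 CD138 peaks, against 1 in each other list. Epcam had 2 among 21, against 0 in each. Pecam1 had 1 member among 17, against 5 in MRISC, 1 in CD34 SP and 1 in Myofibroblast. Pdpn, the gene of gp38, had 0, against 8 in CD34 SP, and Cd81 had 0. Peaks were thus found at genes of antigens on which cells had been excluded, and a peak opened in few cells cannot be told apart from one opened weakly in many.

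Genes of crypt-top fibroblasts, stromal cells that supply BMP and noncanonical Wnt ligands to the epithelium, had 34 members at 14 of 18 genes (0.34%, 0.236 to 0.475), Sdc1 among them. Myofibroblast had 39 peaks there, CD34 SP 38 and MRISC 23, and all intervals overlapped. Of all CD138 peaks 0.312% lay at these genes, within the interval of the members. The members were thus near the CD138 background here. Sox6, a transcription factor of crypt-top fibroblasts, had 7 members among 84 CD138 peaks, against 0 in MRISC, 0 in CD34 SP and 7 in Myofibroblast. Nrg1, a ligand of ERBB receptors, had 5 among 104, against 1, 1 and 5. Wnt5a, a noncanonical Wnt ligand, had 4 among 49, against 9, 3 and 3. Fgf9 had 3 among 56, against 5, 0 and 1. Foxl1, Bmp5 and Npnt had 2 each. Bmp3, Bmp7, Dll1, Tnc, Edn3 and Wif1 had 1 each. Pdgfra, F3, Frzb and Hsd11b2 had 0.

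General stromal genes were fewer among members than in 2 of the other lists. The 26 stromal regulators had 44 members, against 98 in MRISC, 76 in CD34 SP and 46 in Myofibroblast, and the interval of the members (0.320 to 0.590) did not meet those of MRISC (0.796 to 1.19) and CD34 SP (0.599 to 0.95). It held the 0.567% of all CD138 peaks, so the members were near the CD138 background here. BMP and WNT ligand genes had 18 members against 40, 41 and 14. Pan-fibroblast genes had 10 against 19, 37 and 7, and genes of CD34 fibroblasts had 6 against 20, 15 and 3. The epithelial list had 15 members (0.15%, 0.084 to 0.247), against 5, 4 and 9, and against 0.0747% of all CD138 peaks. The endothelial list had 12 (0.12%), against 21, 6 and 15, and against 0.124% of all CD138 peaks. Members per 100 CD138 peaks were 9.26 at epithelial, 4.46 at endothelial and 10.8 at blood-list genes. Against all CD138 peaks the epithelial share was thus raised among members and the endothelial share was not. The epithelial interval of the members overlapped that of each other list. The part of these other cell types in the counts was not tested.

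The central 200 bp of the members were rich in ETS, RUNX and POU words. The ETS word was in 13.0% of members (1305, 12.4 to 13.7), against 7.04% of all CD138 peaks, 5% of MRISC, 5.16% of CD34 SP and 5.62% of Myofibroblast peaks. The longer PU.1 word was in 4.84% (4.43 to 5.28), against 2.15% of all CD138 peaks and 1.49%, 1.35% and 1.61% of the other lists. The RUNX word was in 8.42% (7.88 to 8.98), against 5.18% of all CD138 peaks and 4%, 5.28% and 4.46%. All 3 shares lay above those of each other list, with no overlap of these counting intervals. The POU word was in 2.09% (1.82 to 2.39), against 1.12%, 0.78%, 0.98% and 1.16%, and the IRF word in 3.03%, against 1.93%, 1.62%, 1.72% and 1.43%.

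The E-box CACCTG was in 18.7% of members (17.9 to 19.5), against 13.3% of all CD138 peaks and 11.0%, 10.9% and 14.4% of MRISC, CD34 SP and Myofibroblast. The E-box CAGCTG differed little from the whole, with 15.4% against 14.6%, and CD34 SP had 19%. The other CD138 specific peaks had CAGCTG in 10.9%. The AP-1 word TGANTCA was in 8.86% of members (8.31 to 9.43), against 9.91% of all CD138 peaks. It was in 14.5% of MRISC, 19.9% of CD34 SP and 7.77% of Myofibroblast peaks. The other CD138 specific peaks had 7.05% and the shared ones 13.7%. Members thus had AP-1 words less often than the whole and more often than the weaker specific peaks. The long CTCF word was in 2.43% of members, 1.28% of the other CD138 specific peaks and 7.07% of shared CD138 peaks. An ETS, RUNX, POU or IRF word was in 23.9% of members, against 14.4% of all CD138 peaks and 11.0%, 12.6% and 12.3% of the other lists. ETS and RUNX words stood together in 136 members (1.36%), against 19, 23 and 24 peaks of the others.

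Of the other words searched, SP (GGGGCGGGG) was in 0.78% of members and 1.8% of all CD138 peaks, and CREB (TGACGTCA) in 0.12% and 0.370%. The BLIMP1 word AAAGTGAAA was in 1.00% and 0.636%, HNF4 (CAAAGTCCA) in 0.58% and 0.377%, and FOX (TGTTTAC) in 4.58% and 3.77%. Words of EBF (CCCNNGGG, 5.28% and 6.01%) and TEAD (ACATTCCA, 1.01% and 1.2%) were a little rarer in members than in all CD138 peaks. The other CD138 specific peaks had SP in 0.445%, CREB in 0.12%, EBF in 4.66% and TEAD in 1.05%. Members thus had SP and EBF words more often than the weaker specific peaks. The MEIS word TTGACAG was in 3.23% and 2.83%. The TCF/LEF word CTTTGAT was in 3.16% and 2.80%, and GATA in 2.57% and 2.43% (AGATAAG). These shares were a little above those of all CD138 peaks. So were KLF (GGGTGTGG, 2.40% and 2.26%), C/EBP (TTGCNNAA, 9.33% and 8.87%) and SOX (AACAATG, 3.18% and 3.06%). Posterior HOX and CDX (TTTATNG, 9.46% and 9.17%) and the nuclear receptor word AGGTCA (13.9% and 13.5%) were also at or a little above all CD138 peaks. The same held for NRF2 (TGACNNNGC, 8.67% and 8.46%), CACGTG (3.32% and 3.25%), NF-kB (GGANTTTCC, 1.02% and 0.989%), STAT (TTCCNGGAA, 0.78% and 0.777%), HNF1 (GTTAATNAT, 0.48% and 0.466%) and the long MEF2 word (3.70% and 3.28%). The long words of NFI and the glucocorticoid receptor were in 2 and 6 members. A word names a family, and a match is not a binding site.

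Base composition moved little with these words. The members had 47.5% G and C on average, against 48.3% in all CD138 peaks, 48.3% in MRISC, 47.3% in CD34 SP and 47.1% in Myofibroblast. In each of 5 ranges of GC content the members had more ETS words than all CD138 peaks, from 8.07% against 4.81% under 40% GC to 16.2% against 8.47% at 50 to 55% GC. The same held for RUNX in all 5 ranges, with 7.73% against 5.22% under 40% GC and 7.21% against 3.11% from 55% GC.

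The words lay at the centre of the peaks. Within 50 bp of the centre, 4.10% of members had an ETS word beginning in a step of 50 bp, against 1.35% in the flanks at 500 to 1000 bp, a ratio of 3.03. In MRISC, CD34 SP and Myofibroblast the ratio was 0.978, 1.05 and 1.12. For RUNX it was 1.92 in members and 0.802, 1.15 and 0.925 in the others, and for POU 1.82 against 0.798, 0.847 and 0.776. The ratio for CACCTG was 1.47 in members, with 0.758 in MRISC, 0.787 in CD34 SP and 1.05 in Myofibroblast. AP-1 words were central in every list, least in Myofibroblast, with ratios of 1.70 in members, 3.07 in MRISC, 4.2 in CD34 SP and 1.35 in Myofibroblast. The flanks of the 4 lists were alike, at 1.28% to 1.35% for ETS, and the difference between lists was in the centre.

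**Figure D3:**
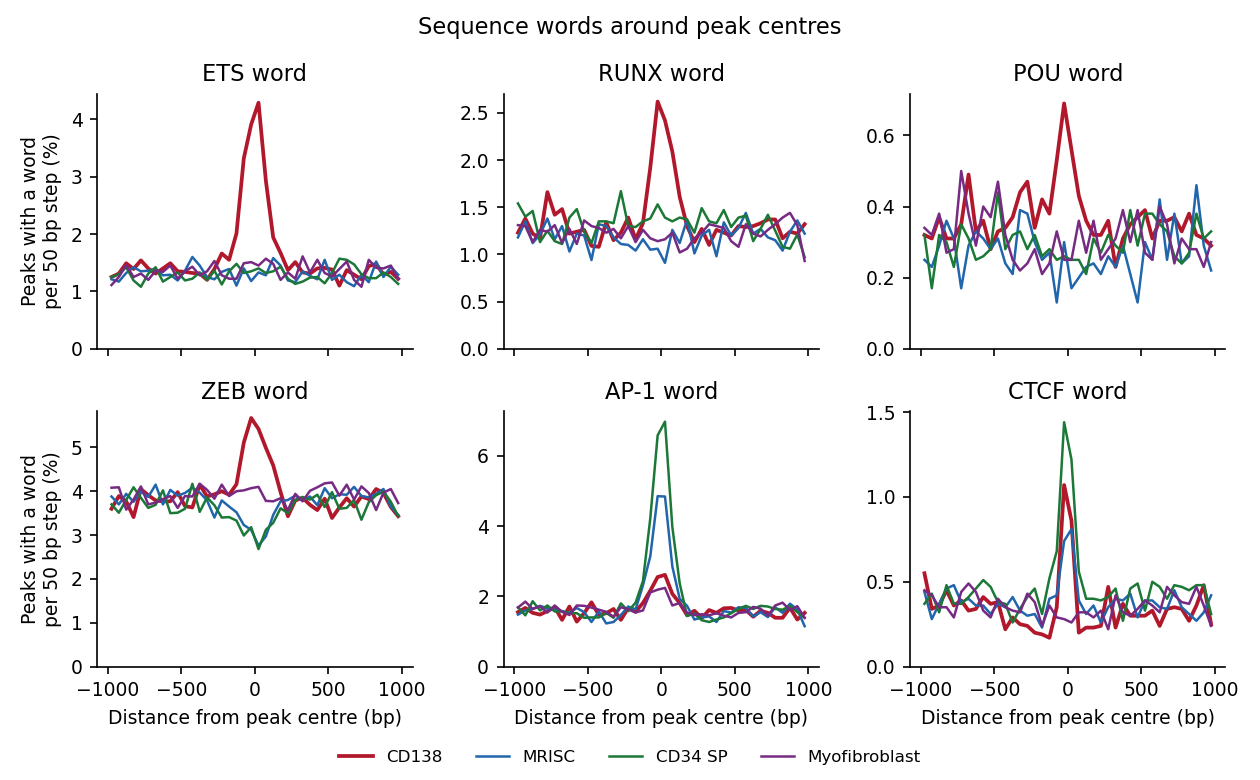
Share of peaks (%, vertical axes, each from 0) in which a word begins in each 50 bp step, by distance from the peak centre (bp), for the 10000 highest-scored specific peaks of the 4 populations (coloured lines). ETS, RUNX and POU words form a central peak in CD138 and none of that height in the other lists, while AP-1 words peak highest in CD34 SP and MRISC.

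The words were more frequent at higher scores. The ETS word was in 26.0% of ranks 1 to 100 (17.7 to 35.7), 24.8% of ranks 101 to 500, 18.6% of ranks 501 to 1000, 16.1% of ranks 1001 to 2500, 13.2% of ranks 2501 to 5000 and 10.3% of ranks 5001 to 10000 (9.47 to 11.2). In the 10000 peaks after these it was in 8.22%. RUNX went from 22.0% to 6.68% over the same bins, the PU.1 word from 13.0% to 4% and POU from 8% to 1.54%. CACCTG went from 35.0% to 16.5% and CAGCTG from 28% to 13.3%. AP-1 varied less with the score, with 9% in ranks 1 to 100 (4.2 to 16.4), 12.8% in ranks 101 to 500 (9.64 to 16.4), 9% in ranks 501 to 1000 and 8.22% in ranks 5001 to 10000 (7.47 to 9.02). Higher-scored members were also wider, but each search used the same 200 bp.

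**Figure D4:**
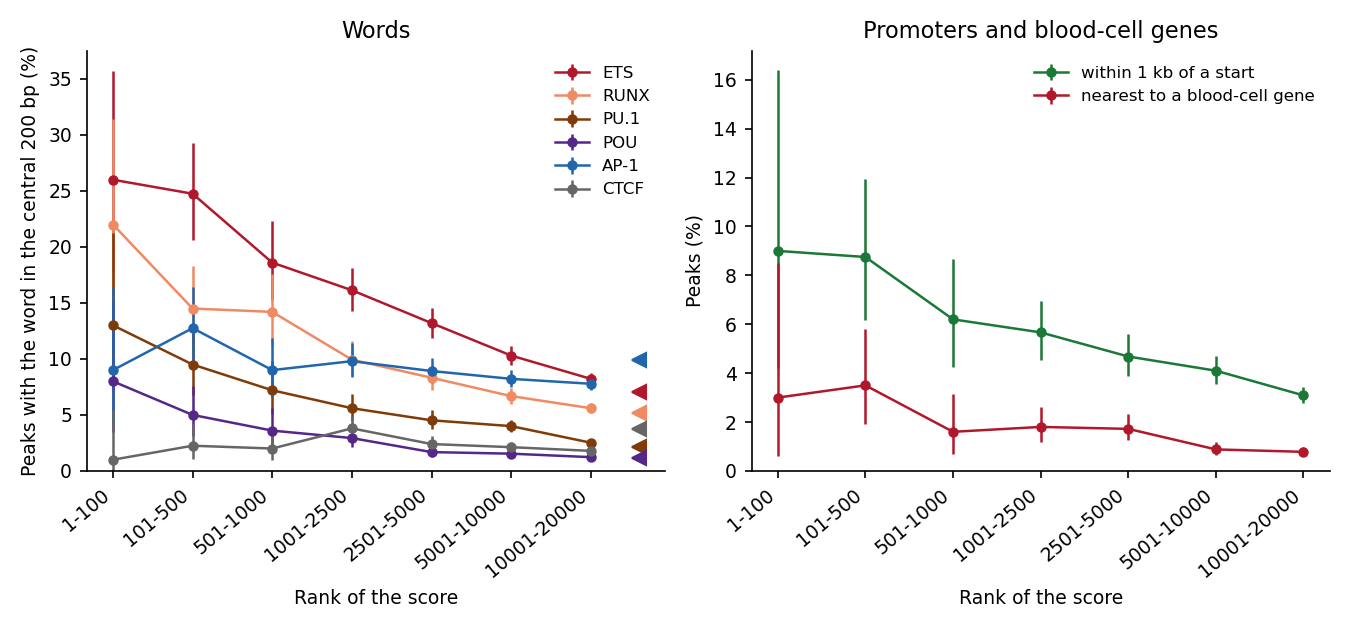
Left, share of CD138 specific peaks (%) with a word in the central 200 bp by rank of the score (points with exact 95% intervals), with triangles at the right edge for the share in all CD138 peaks; right, share within 1 kb of a protein-coding start and share nearest to a blood-cell gene in the same bins. ETS, RUNX, PU.1 and POU words, promoters and blood-cell genes are most frequent in the highest 500 ranks.

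Words also varied with the place of the member. In the 482 promoter members the ETS word was in 19.7% (16.2 to 23.5) and the PU.1 word in 9.34% (6.89 to 12.3), against 12.7% (12.0 to 13.4) and 4.61% (4.2 to 5.05) of the others. The 611 members in clusters of 3 or more had ETS words in 19.1% (16.1 to 22.5), RUNX in 12.9% (10.4 to 15.9) and CACCTG in 27.7% (24.1 to 31.4), while the 7885 single members had 12.3%, 7.79% and 17.4%. The 139 members at blood-list genes had ETS words in 18.0% (12.0 to 25.4), with an interval that met the 13.0% of the other 9861, and so the words were not confined to those genes.

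Transcripts of the nearest genes were read in the single-cell library, which held 11376 kept cells and 72920197 UMIs, with a median of 6052 UMIs per cell. Levels are CPM, the UMIs of a gene summed over cells and scaled to a common total, with exact Poisson intervals for counting error where given, and 1 library allows no test. Of the 5668 nearest genes measured, 2504 (44.2%, 42.9 to 45.5) had at least 10 CPM, against 37.4% of all protein-coding genes. The share was 47.2% for MRISC, 55.8% for CD34 SP and 42.3% for Myofibroblast. The median level was 6.54 CPM, against 2.59 CPM in all protein-coding genes and 13.8 CPM next to CD34 SP peaks. Genes nearest to 5 or more members reached 52.3% and a median of 11.3 CPM.

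Genes with a member in the promoter went the other way. Of these 457 genes, 27.1% had at least 10 CPM and the median was 0.933 CPM, against 54.3% and 12.3 CPM for the 13924 genes with any CD138 peak in the promoter. The share was 35.7% for MRISC, 54.4% for CD34 SP and 37.4% for Myofibroblast. Where the member was the only CD138 peak in the promoter, as at 145 genes, 6 (4.14%) had at least 10 CPM and the median was 0.137 CPM. Where another CD138 peak stood in the same promoter, as at 312 genes, 37.8% had. Sole specific promoter peaks were at weakly detected genes in the other lists too, with 7.69% for MRISC, 18.3% for CD34 SP and 8.99% for Myofibroblast.

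**Figure D5:**
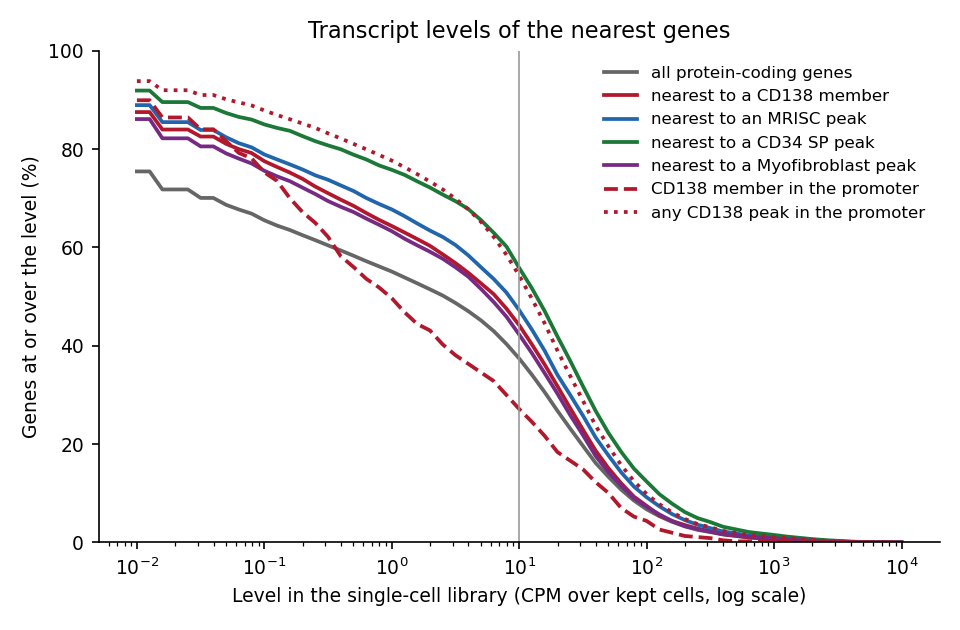
Share of genes (%, vertical axis) at or over a level in the single-cell library (CPM, log axis) for all protein-coding genes (grey), genes nearest to the peaks of each list (solid), genes with a CD138 member in the promoter (dashed) and genes with any CD138 peak in the promoter (dotted); the grey line marks 10 CPM. Genes nearest to members lie above all genes, and genes with a member in the promoter lie below all genes at 1, 10 and 50 CPM.

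Promoter members at blood-list genes numbered 28, at 26 genes. The highest were at Itgal (rank 51, 20 bp from the start, 0.535 CPM in the library), Runx3 (rank 100, 0.261 CPM), Vav1 (rank 221, 23 bp, 0.123 CPM), Cytip (rank 351, 0.850 CPM) and Jchain (rank 427, 28 bp). These genes were picked after their values were seen. Only Jchain (96.6 CPM) and 1 other of the 26 had at least 10 CPM. The open promoters thus belonged mostly to genes whose transcripts were hardly seen in this library, which came from other mice, another gate and another treatment.

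Of all 120 blood-list genes, 6 had at least 10 CPM, 19 had no UMI, and their summed level was 611 CPM. In empty droplets (at most 100 UMIs), which sample free RNA, the same sum was 816 CPM. It was 816 CPM in the 1005 cells with an Sdc1 UMI and no Cd34 UMI and 520 CPM in the 5661 cells with a Cd34 UMI and no Sdc1 UMI. The most abundant immunoglobulin transcripts were Igkc, at 420 CPM in all kept cells, 674 CPM in Sdc1 cells, 189 CPM in Cd34 cells and 1076 CPM in empty droplets, and Igha, at 155, 247, 74.3 and 439 CPM. Ighm was at 0.714 CPM in Sdc1 cells and 2.72 CPM in Cd34 cells, Iglc1 at 4.42 and 4.77 CPM and Iglc3 at 0.714 and 1.24 CPM. Iglc2 was at 3.14 and 1.62 CPM and Ighg2b at 0.571 and 0.173 CPM. The order of these cells thus differed between these genes of low level. Empty droplets thus held a higher level of Igkc and Igha than any of these groups of cells. Ptprc was at 0.343 CPM in cells and 0.694 CPM in empty droplets, and Dock2 at 0.0549 CPM. The part of blood-cell RNA or blood cells in the peaks was not tested.

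Named genes of that list differed. Prdm1 was at 35.8 CPM (34.4 to 37.2), with 75.8 CPM in Sdc1 cells (69.5 to 82.5), 18.0 CPM in Cd34 cells (16.6 to 19.4) and 26.4 CPM in empty droplets. Runx1 was at 26.8 CPM, with 55.1 CPM in Sdc1 cells, 19.1 CPM in Cd34 cells and 29.8 CPM in empty droplets. Both stood higher in Sdc1 cells than in empty droplets and Cd34 cells. Xbp1 was at 308 CPM with little difference between Sdc1 cells (328) and Cd34 cells (306), and Fli1 at 6.61 CPM, with 6.99 and 6.59. Jchain was at 207 CPM in Sdc1 cells, 47.4 CPM in Cd34 cells and 167 CPM in empty droplets.

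The genes with the most members ranged widely in level. Tcf4 (218 CPM), Lpp (215 CPM), Pcdh7 (193 CPM), Cited2 (106 CPM), Syt13 (102 CPM), Rbms3 (89.9 CPM), Trib1 (81.8 CPM) and Reep3 (79.4 CPM) were well detected, and Irs2 (31.3 CPM), Adgrl3 (29.95 CPM), Foxo1 (26.1 CPM), Myc (16.8 CPM), Gramd3 (12.52 CPM), Nav2 (11.2 CPM) and Vrk1 (10.3 CPM) less so. Tent5c, listed in the matrix under its older name Fam46c, was at 2.32 CPM, Lmo7 at 1.3 CPM, Chd7 at 1.29 CPM, Casz1 at 0.891 CPM and Plcg2 at 0.247 CPM. In Sdc1 cells Syt13 was at 172 CPM against 75.7 CPM in Cd34 cells, Cited2 at 148 against 81.9 CPM and Chd7 at 4.42 against 0.607 CPM, while Myc was at 7.85 against 24.99 CPM. Syt13, Cited2 and Chd7 were thus higher in Sdc1 cells and Myc was higher in Cd34 cells.

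At the highest-scored members and clusters, Anxa5 was at 858 CPM, Bin1 at 72.0, Ccnd2 at 68.2, Cd44 at 63.0, Ddx18 at 44.4, Coq2 at 37.8, Gtf2i at 37.7, Dusp22 at 37.0, Rilpl2 at 35.6, Stard5 at 34.2, Csk at 33.4, Rpia at 28.2 and Stk17b at 10.8 CPM. Under 10 CPM were Abr (9.79), Tmem121 (6.64), Lmnb1 (5.75), Mettl8 (4.96), St6gal1 (4.53), Il16 (3.29), Hip1r (1.93), Rps6ka1 (1.84), Arhgap25 (1.10), Gimap1 (0.398), Ncf1 (0.357), Sfmbt2 (0.192), Sla (0.178), AI467606 (0.151), Ppp1r16b (0.137) and Tg (0.0411 CPM). Of the genes described above as leukocyte genes, Arhgap25, Gimap1, Ncf1 and Sla were at or under 1.10 CPM, and Il16 and Stk17b were above it.

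Sdc1 and Cd34, which define these groups of cells, were at 104 and 430 CPM in all kept cells. Nrg1 was at 644 CPM in Sdc1 cells (625 to 663) and 35.3 CPM in Cd34 cells, Bmp5 at 160 and 79.4, Tnc at 177 and 78.3, Wnt5a at 48.2 and 28.7, and Pdgfra at 180 and 155 CPM. Sox6, with 7 members, was at 1.86 CPM in Sdc1 cells and 2.49 CPM in Cd34 cells, and Foxl1 at 6.85 and 6.24 CPM. Pdpn was at 248 and 304 CPM and Thy1 at 98.5 and 160 CPM. Epcam, an excluded antigen, was at 60.2 CPM in Sdc1 cells, 1.65 CPM in Cd34 cells and 13.4 CPM in all kept cells, and the 18 epithelial genes summed to 376 CPM in Sdc1 cells, 59.5 CPM in Cd34 cells and 225 CPM in empty droplets. Epithelial transcripts were thus richer in the Sdc1 cells, and their part in other differences between these cells was not tested.

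Nearest genes as a whole did not lean toward Sdc1 cells. Among the 2502 nearest genes with at least 10 CPM, the median difference between Sdc1 and Cd34 cells, on a log2 scale with 1 CPM added, was 0.05, and over all 8115 such genes it was also 0.05. A level at least 2-fold higher in Sdc1 cells was seen in 104 of the nearest genes (4.16%), and at least 2-fold higher in Cd34 cells in 70 (2.80%), against 2.35% and 2.05% of all genes. Next to Myofibroblast peaks the shares were 4.22% and 2.92%. Among the 138 genes with 5 or more members, 12 were at least 2-fold higher in Sdc1 cells and 7 in Cd34 cells.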

How the data were processed

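Open chromatin was measured by ATAC-seq in 8 libraries of 4 sorted colon stromal populations. The deposited lists hold 1 score per peak, per the file headers and values, for the 2 libraries of a population together. Peak caller, score unit and specificity rule: not given in the sources used here. Each specific list was checked for overlap with the other populations. The submitters' processing notes name bcl2fastq, bedtools, Cell Ranger, Seurat and mm10. The deposited single-cell matrix holds UMI counts, per the file headers (software version 3.0.0).

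Members were taken by rank of the score, and 78 CD138 specific peaks on other chromosomes were left out. Distances ran from the peak centre to the nearest transcript start of 21755 protein-coding genes (GENCODE vM21). Words were searched on both strands in the central 200 bp. Barcodes under 500 genes or over 10% mitochondrial counts were dropped, which kept 11376 of 11484. No doublet caller was run and no doublets were removed. Genes were matched by ID. Python 3.11.15, numpy 2.4.6, pandas 2.3.3 and scipy 1.17.1 were used, and the steps were tested on simulated data. Shares have exact Clopper-Pearson intervals.

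Named genes were the 20 with most members, those nearest to the 20 highest-scored members, those of the 10 largest clusters, blood-list genes with 5 or more members, and sort-marker and crypt-top genes. Other blood-cell genes, Pitpnc1, Phf11c, Bhlhe41, the antigen receptor loci, word positions, repeated words and the split by sole promoter peaks were chosen after their values were seen. The members and lists were chosen with earlier results of these data known.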

Additional observations from a re-analysis of the deposited data

How the results depend on the processing

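With 5000 members the promoter share was 5.54%, the median distance 24309.5 bp, the share in clusters 18.0%, the share at blood-cell genes 1.90%, the share of nearest genes detected 45.9% and the share with an ETS, RUNX, POU or IRF word 28.2%. With 20000 members the first 5 of these were 3.96%, 33881.5 bp, 28.3%, 1.08% and 42.9%. For the 10000 highest peaks at least 500 bp from the other populations, the promoter share was 3.30%, the median distance 34578 bp, the share in clusters 17.9% and the share detected 42.7%, and the share at blood-cell genes moved little. There 131 peaks lay at blood-cell genes, against 57 in MRISC, 45 in CD34 SP and 49 in Myofibroblast. A promoter window of 2 kb gave 8.23%. Starts of all genes gave 9.93% and a median of 11032 bp. Linking distances of 5 and 25 kb put 11.4% and 32.3% in clusters. Counting members within gene bodies and 10 kb around them gave 1.15% at blood-cell genes. Detection at 1 and 50 CPM gave 64.4% and 15.1%. Searching whole peaks gave 30.9% with a word. Of 32 alternative values of these summaries, 24 moved beyond the counting interval and 8 did not. No paired analysis was possible because the libraries of each population came as 1 pooled list, and for the same reason no replicate could be left out. Depth of the ATAC libraries was not known.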
